A study of Homo sapiens with 16 samples.

Results

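The aminoacyl-tRNA synthetase genes were examined as a set of 35, chosen by name from the 19343 genes with a protein-coding (NM) transcript in the deposited annotation, where they carry their older symbols. The set was divided by symbol into 20 cytosolic enzymes and 15 mitochondrial enzymes, whose symbols end in 2. TARSL2, by its symbol a further threonine synthetase gene, was not in the set and was listed with the partner genes below. Binding of BCL11A and ZBTB7A, zinc-finger repressors of fetal γ-globin, was located by ChIP-seq, which sequences the DNA recovered with a protein by immunoprecipitation. The 16 libraries, 8 ChIP and 8 control, were deposited as 4 lists of peak regions. BCL11A was measured in HUDEP-2, an immortalised human erythroid progenitor line, carrying the BCL11A-ER-V5 system, with 24 h of 4-hydroxytamoxifen at 1e-07 M and an antibody against the V5 tag (2 ChIP and 2 control libraries). ZBTB7A was measured with antibodies against the protein in K562, an erythroleukaemia line (4 and 4 libraries). It was also measured in HUDEP-2 cells labelled ΔGγ, whose annotation lacks the γ-globin gene HBG2, with the 195C>G γ-globin promoter (1 and 1) and with the WT promoter (1 and 1). All HUDEP-2 cells were grown with SCF, EPO, dexamethasone and doxycycline. The labels do not say whether the ΔGγ lines are single clones, and peak lists carry no expression by which the identity of the lines could be checked.

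Aminoacyl-tRNA synthetases join each amino acid to its tRNA, the step that fixes the meaning of the genetic code. One set of enzymes charges tRNAs in the cytosol and another, also encoded in the nucleus, charges those of the mitochondrion, and GARS and KARS each encode both forms. Several cytosolic enzymes sit in a large multi-synthetase complex held together by scaffold proteins. Many cytosolic synthetase genes are known targets of ATF4, the transcription factor of the amino acid response. Erythroid cells depend on both translation systems, since globin is made in the cytosol and heme synthesis begins and ends in mitochondria.

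A gene was counted as having a promoter region in a list when the summit of a peak region, or its midpoint where the list gives no summit, lay within 1 kb of an NM start. The lists held 12911 regions for BCL11A, 17331 for ZBTB7A in K562, 18784 for 195C>G and 36435 for WT. Each is 1 list, pooled over replicates for BCL11A and K562 and from 1 ChIP library for 195C>G and WT, so no value has an error between replicates and no read depth is known. The authors' score (BCL11A) and signal (195C>G and WT) are used only to order regions within their own list, and the K562 list, which has no value, is ordered by its rows, an order whose basis is not stated. A rank is that of a gene's best promoter region, and ranks from lists of different length show no change in binding.

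BCL11A had a promoter region at 18 of the 35 synthetase genes, or 51.4%, against 24.4% of all genes. ZBTB7A had one at 17 genes in K562 (48.6%, against 33.2% of all genes), at 13 in 195C>G (37.1%, against 29.1%) and at 21 in WT (60.0%, against 44.9%). The exact 95% binomial interval of the members' share, which covers counting error over genes only, ran from 34.0% to 68.6% for BCL11A, above the share of all genes. It held that share in K562 (31.4% to 66.0%), 195C>G (21.5% to 55.1%) and WT (42.1% to 76.1%). In the stronger 50% of the 195C>G list the direction turned, with 17.1% of members against 17.8% of all genes. Sequence composition moved with this difference. Of the 29 members with a RefSeq promoter sequence, 28 were CpG-rich (GC content of at least 50% and a CpG observed-to-expected ratio of at least 0.6), or 96.6%, against 62.5% of the 15318 genes with such a sequence. Among all CpG-rich promoters the share with a region was 34.3% for BCL11A, 46.1% in K562, 39.9% in 195C>G and 61.3% in WT. Against these shares the synthetase genes stood higher for BCL11A, but the members' interval for BCL11A held the CpG-rich share of 34.3%. They stood close to the share in the 3 ZBTB7A lists. All 35 members were counted here, also those without a promoter sequence, and HARS and HARS2, which share a BCL11A region, were both counted. Without VARS, VARS2 and CARS, which are copied on alternative contigs, the members' shares were 40.6% in 195C>G and 65.6% in WT, above the CpG-rich shares. The CpG-rich shares were not recomputed without genes copied in this way. Over the whole genome such genes were marked at 2.17% in 195C>G and 3.58% in WT, so the sign in the ΔGγ lists is not settled. The part of CpG content in the counts was not tested further, and genes are not replicates, so no p-value is given.

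**Figure D1:**
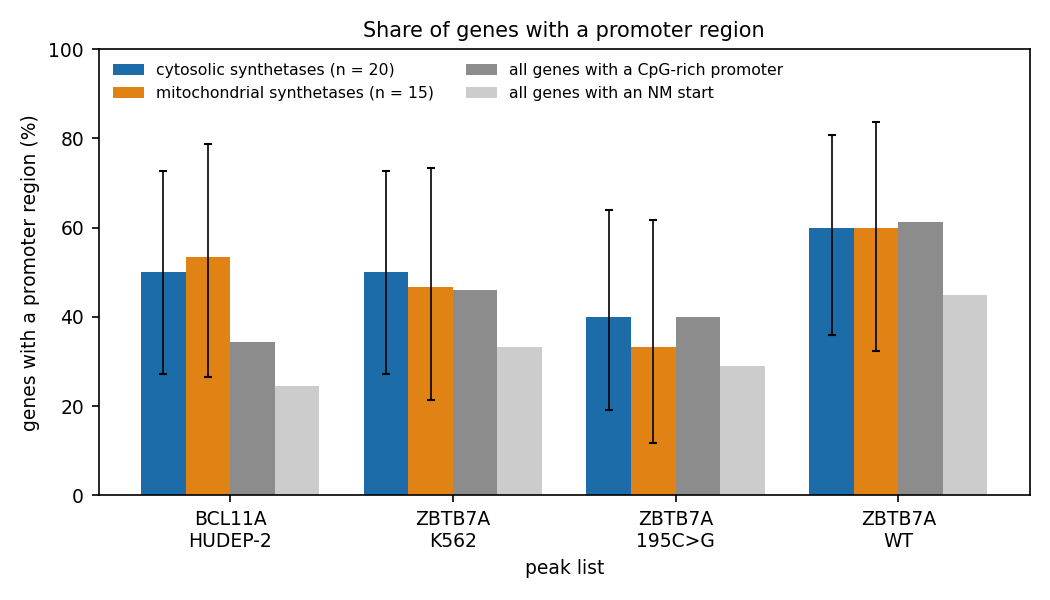
Share of genes with a promoter region (y axis, percent) in each of the 4 peak lists (x axis), for the 20 cytosolic and 15 mitochondrial synthetase genes, for all genes with a CpG-rich promoter and for all genes; error bars are exact 95% binomial intervals, which cover counting error only. The cytosolic and mitochondrial bars lie within 6.67 percentage points of each other in every list, and in the WT list both stand at 60.0%.

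Cytosolic and mitochondrial shares differed by at most 6.67 percentage points in any list. BCL11A had promoter regions at 10 of 20 cytosolic and 8 of 15 mitochondrial genes. In K562 the counts were 10 cytosolic and 7 mitochondrial, in 195C>G 8 and 5, and in WT 12 and 9. The difference in share, cytosolic minus mitochondrial, was -3.33 percentage points for BCL11A (Newcombe 95% interval -33.0 to 27.4), 3.33 in K562 (-27.4 to 33.0), 6.67 in 195C>G (-24.2 to 34.7) and 0 in WT (-29.4 to 30.3). With so few genes these intervals admit large differences of either sign, and they cover counting error only. With a window of 5 kb the difference in 195C>G was 21.7 points, from 11 cytosolic and 5 mitochondrial genes. Among the 8 cytosolic enzymes of the multi-synthetase complex, 4 had a region in the BCL11A list, 2 in K562, 3 in 195C>G and 5 in WT. Among the other 12 cytosolic genes the counts were 6, 8, 5 and 7 in the same lists.

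Pairs of genes for the same amino acid were compared next. Of the 13 pairs named alike, such as TARS and TARS2, BCL11A marked both genes of 4 pairs, the cytosolic gene alone in 2, the mitochondrial gene alone in 3 and neither in 4. In K562 the counts were 5, 3, 1 and 4, in 195C>G 1, 3, 3 and 6, and in WT 5, 1, 2 and 5, in the same order. TARS with TARS2, the threonine enzymes of the set, was the pair with both genes marked in all 4 lists. MARS with MARS2, for methionine, had neither gene marked in any.

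**Figure D2:**
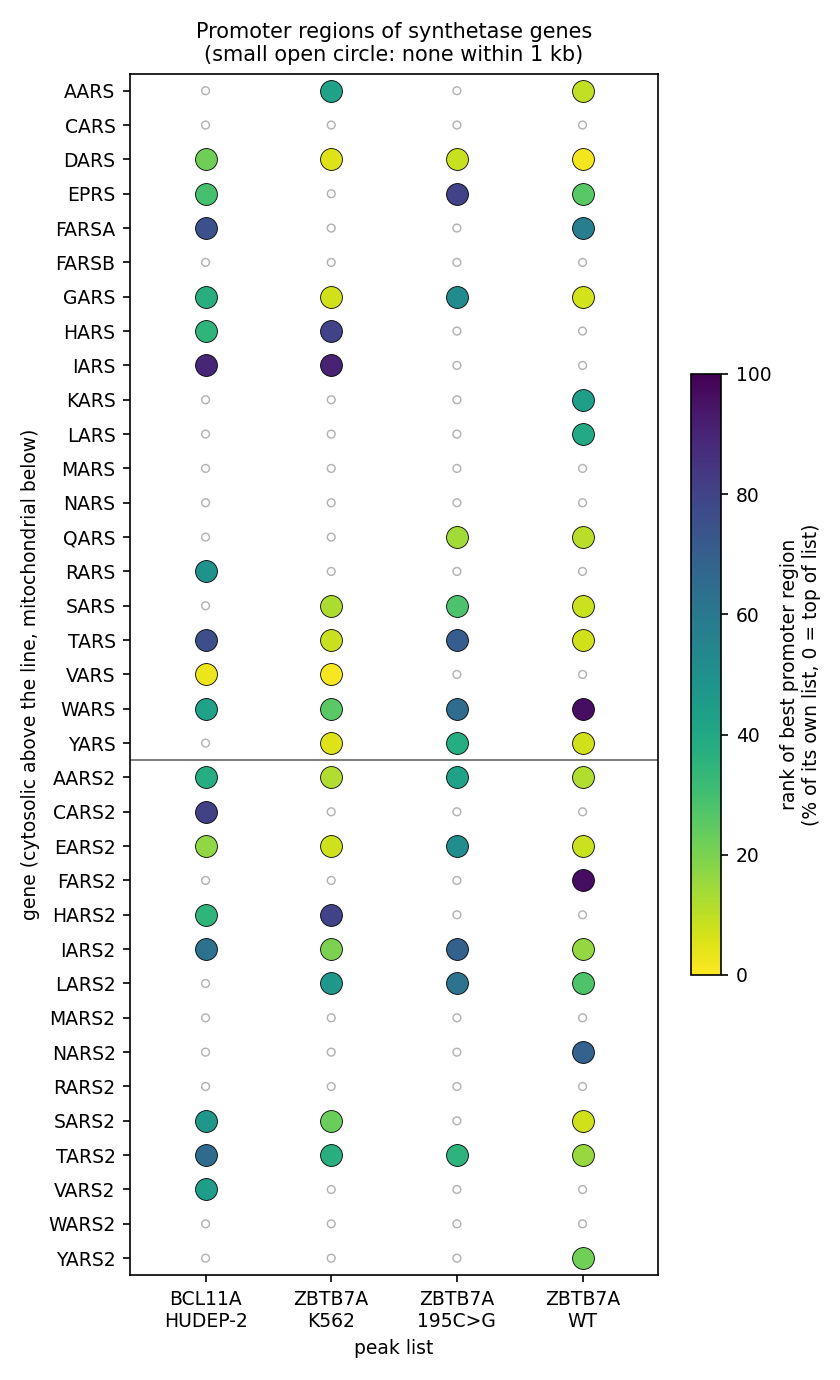
Best promoter region of each of the 35 synthetase genes (y axis) in each peak list (x axis); the colour gives its rank as a percent of that list, with 0 the top of the list, and a small open circle means that no region lay within 1 kb. DARS lies in the top 8.21% of each of the 3 ZBTB7A lists, VARS is filled in the BCL11A and K562 columns and open in 195C>G and WT, and 7 genes are open throughout.

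A promoter region was present in all 4 lists for 8 members (22.9%, against 10.0% of all genes): the cytosolic genes DARS, GARS, TARS and WARS and the mitochondrial genes AARS2, EARS2, IARS2 and TARS2. Of the others, 5 were marked in 3 lists, 7 in 2, 8 in 1 and 7 in none (20%, against 45.1% of all genes). The shares in all 4 lists and in none were not counted among CpG-rich promoters, so these contrasts are not matched for sequence composition. The 7 without any were CARS, FARSB, MARS and NARS among cytosolic genes and MARS2, RARS2 and WARS2 among mitochondrial ones. The members thus ran from regions in every list to none, and a missing region is not read as lack of binding.

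DARS, which encodes the aspartate enzyme of the multi-synthetase complex, had the best mean rank of the 8. Its region stood at rank 2851 for BCL11A (score 57.7), 898 in K562, 1543 in 195C>G (signal 91.2) and 614 in WT (signal 120.1). It was the best-ranked synthetase gene in both ΔGγ lists and the second best in K562. The 195C>G summit lay 221 bp inside the gene. The WT region ran over chr2:135985349-135985743 (hg38), with its summit 133 bp inside, in the 5′ untranslated region.

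EARS2 encodes the mitochondrial glutamate enzyme, which also starts the indirect route to mitochondrial glutamine tRNA. Its region stood at rank 2163 for BCL11A (score 69.6), 1352 in K562, 9676 in 195C>G (signal 39.4) and 2949 in WT (signal 68.9). The positions lay close together, at 128, 146, 151 and 129 bp upstream of the start in the same lists. The start of UBFD1 lies 166 bp upstream of that of EARS2 on the other strand, and in every list the same region served as the best region of both genes, so the 2 promoters cannot be told apart.

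GARS, for glycine, stood at rank 4784 for BCL11A (score 38.1), 1221 in K562, 9825 in 195C>G (signal 39.0) and 2532 in WT (signal 73.5). AARS2, for mitochondrial alanine, stood at 4897 (score 37.3), 2037, 7972 (signal 43.9) and 4289 (signal 58.5) in the same lists. GARS has 2 annotated starts, and its positions lay from 3 to 45 bp downstream of the nearer one. The BCL11A region lay by the inner start and the ZBTB7A regions by the outer one, with the BCL11A and 195C>G positions 166 bp apart. In AARS2 the positions lay from 16 to 104 bp upstream of the start. TARS, for cytosolic threonine, had ranks of 9828 (score 19.2), 1473, 13281 (signal 32.5) and 2674 (signal 71.9), and TARS2 had 8442 (score 22.6), 6416, 6652 (signal 48.2) and 5656 (signal 51.1). The TARS regions lay inside the gene, from 157 to 364 bp, and those of TARS2 upstream, from 50 to 156 bp. IARS2, for mitochondrial isoleucine, had ranks of 8044 (score 23.8), 3413, 13109 (signal 32.8) and 5915 (signal 50.0).

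WARS, for tryptophan, had the lowest place of the 8 by mean rank percent, which its WT rank carried. TARS stood lower in the BCL11A and 195C>G lists and TARS2 in K562. WARS stood at rank 5448 for BCL11A (score 34.1), 4432 in K562, 12210 in 195C>G (signal 34.3) and 35285 of 36435 in WT (signal 15.4). The gene has 2 annotated starts. The BCL11A, K562 and 195C>G regions lay within 58 bp of the inner start and overlapped one another, whereas the WT region lay 262 bp upstream of the outer start and did not overlap the 195C>G region. WDR25 shares each of these regions.

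The promoter sequences of 6 of these 8 genes are shown because they carry regions in all 4 lists, followed by those of CARS and FARSB, the first in alphabetical order of the 7 genes with no region. Each runs 5′ to 3′ along the gene's strand, from 250 bases before to 50 after a RefSeq start (GRCh38.p14), and where a gene has several such windows the one most covered by its regions was taken. Capitals mark matches on either strand to TGACCA, to CTTCCCC, to TGATGNAA or to CCGGAA.
EARS2 (chr16:23557326-23557625, minus strand): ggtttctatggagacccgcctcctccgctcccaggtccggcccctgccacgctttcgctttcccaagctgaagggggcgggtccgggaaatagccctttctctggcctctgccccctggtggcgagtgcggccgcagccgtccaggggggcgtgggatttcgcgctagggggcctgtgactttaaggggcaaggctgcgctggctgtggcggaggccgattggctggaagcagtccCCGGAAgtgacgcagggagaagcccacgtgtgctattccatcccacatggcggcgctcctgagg
GARS (chr7:30594628-30594927, plus strand): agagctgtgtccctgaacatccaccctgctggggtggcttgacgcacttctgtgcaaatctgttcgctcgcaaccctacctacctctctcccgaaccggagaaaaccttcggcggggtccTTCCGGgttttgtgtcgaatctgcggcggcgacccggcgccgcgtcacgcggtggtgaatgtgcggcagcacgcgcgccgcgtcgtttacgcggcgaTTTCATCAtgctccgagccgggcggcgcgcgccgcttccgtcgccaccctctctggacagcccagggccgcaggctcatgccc
TARS2 (chr1:150487169-150487468, plus strand): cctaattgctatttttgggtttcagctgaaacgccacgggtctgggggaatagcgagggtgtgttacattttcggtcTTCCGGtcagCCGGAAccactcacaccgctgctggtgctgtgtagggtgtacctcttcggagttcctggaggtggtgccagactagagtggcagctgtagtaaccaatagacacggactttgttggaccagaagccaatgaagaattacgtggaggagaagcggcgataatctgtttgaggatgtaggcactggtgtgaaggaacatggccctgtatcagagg
TARS (chr5:33440715-33441014, plus strand): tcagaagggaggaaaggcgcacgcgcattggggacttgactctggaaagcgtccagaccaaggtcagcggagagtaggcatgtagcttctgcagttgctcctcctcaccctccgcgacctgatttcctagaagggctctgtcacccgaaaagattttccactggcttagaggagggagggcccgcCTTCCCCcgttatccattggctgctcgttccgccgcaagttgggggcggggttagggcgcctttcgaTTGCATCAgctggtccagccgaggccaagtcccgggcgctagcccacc
IARS2 (chr1:220093882-220094181, plus strand): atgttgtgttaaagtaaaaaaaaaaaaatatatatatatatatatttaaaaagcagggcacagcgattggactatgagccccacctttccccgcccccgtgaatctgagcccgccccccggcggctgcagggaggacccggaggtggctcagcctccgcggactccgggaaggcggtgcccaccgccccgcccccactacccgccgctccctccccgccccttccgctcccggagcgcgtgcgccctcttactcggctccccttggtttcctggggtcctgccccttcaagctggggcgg
WARS (chr14:100375298-100375597, minus strand): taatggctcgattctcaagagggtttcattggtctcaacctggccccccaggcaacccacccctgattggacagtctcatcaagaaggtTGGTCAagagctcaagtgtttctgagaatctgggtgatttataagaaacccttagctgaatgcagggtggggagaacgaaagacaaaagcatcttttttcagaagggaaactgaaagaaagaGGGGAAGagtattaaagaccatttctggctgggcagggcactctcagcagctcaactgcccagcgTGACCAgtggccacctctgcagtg
CARS (chr11:3057374-3057673, minus strand): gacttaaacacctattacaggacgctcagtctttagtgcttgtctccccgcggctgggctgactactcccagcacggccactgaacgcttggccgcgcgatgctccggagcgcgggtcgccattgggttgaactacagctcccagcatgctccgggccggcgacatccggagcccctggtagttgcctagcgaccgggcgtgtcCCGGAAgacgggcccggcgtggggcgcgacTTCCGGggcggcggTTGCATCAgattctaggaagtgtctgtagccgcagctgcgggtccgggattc
FARSB (chr2:222656043-222656342, minus strand): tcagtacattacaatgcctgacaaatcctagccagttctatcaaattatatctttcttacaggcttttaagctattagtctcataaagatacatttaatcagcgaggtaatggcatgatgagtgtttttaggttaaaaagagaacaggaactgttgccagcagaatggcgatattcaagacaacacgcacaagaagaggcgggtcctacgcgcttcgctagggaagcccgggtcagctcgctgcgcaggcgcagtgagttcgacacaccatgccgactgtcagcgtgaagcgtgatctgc
The EARS2 window was covered over 190 bases by the BCL11A region, 295 by the K562 region and all 300 by the 195C>G and WT regions. The GARS and TARS2 windows held the positions of all 4 regions as well. The TARS window held the BCL11A position alone and the IARS2 window the K562 position alone, while regions of the other lists covered part of each. The WARS window was covered over 0 bases by the WT region, which lies at the other start. FARSB was the 1 member of 29 whose promoter, by its RefSeq start, was not CpG-rich, with a GC content of 46.7%. RefSeq starts can differ from the deposited starts used to place regions. The deposited minus the RefSeq start, along the gene, was -263 bp for FARSB, -243 bp for WARS and -189 bp for TARS. The other printed windows had values from -55 bp (TARS2) to 15 bp (GARS). The FARSB window thus lay wholly downstream of its deposited start, so its composition does not describe sequence upstream of that start.

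VARS, for cytosolic valine, was the best-ranked synthetase gene in the BCL11A and K562 lists. Its promoter region stood at rank 400 of 12911 for BCL11A (score 211), over chr6:31795842-31796224, and at rank 165 of 17331 in K562, over chr6:31795811-31796216. The positions lay 98 bp and 79 bp upstream of the start. VARS2, the mitochondrial valine gene on the same chromosome arm, had a BCL11A region at rank 5767 (score 32.5), 159 bp inside the gene, in an intron. Neither gene had a region in 195C>G or WT.

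Both valine genes lie in the major histocompatibility complex, where the ΔGγ lists were empty. The deposited annotation places copies of these genes on alternative contigs of chromosome 6, 6 for VARS and 5 for VARS2. The stretch between the outermost starts of the genes copied in this way, chr6:28526012-33454579, held 73 BCL11A regions and 174 K562 regions, but 0 regions in 195C>G, of 1392 on chromosome 6, and 0 in WT, of 2483. Promoter regions were found for 40 (23.5%) and 61 (35.9%) of its 170 genes in the BCL11A and K562 lists and for none in the others. Over the whole genome, genes with an NM copy on an alternative contig had promoter regions in 17.4% of 782 cases for BCL11A, 25.3% in K562, 2.17% in 195C>G and 3.58% in WT. The 195C>G and WT lists held 4 and 10 regions on alternative contigs and the BCL11A and K562 lists held none. The stretch was defined after the values of VARS were seen, and the cause of the empty stretch was not tested. The missing VARS and VARS2 regions in 195C>G and WT are therefore not read as absence of ZBTB7A. CARS has 1 such copy as well. Without these 3 genes, 16 of 32 members were marked by BCL11A, 16 in K562, 13 in 195C>G and 21 in WT.

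The 195C>G and WT lists were set side by side to see which synthetase promoters recur. A region in 195C>G was found for 13 members, all of them among the 21 marked in WT. Of all WT-marked genes 63.2% were also marked in 195C>G. For 12 of the 21 a WT promoter region was overlapped by a 195C>G region by at least 1 bp, against 62.8% of all WT-marked genes. The 8 members marked in WT and not in 195C>G were AARS, FARSA, FARS2, KARS, LARS, NARS2, SARS2 and YARS2. The synthetase genes recurred at a rate near that of all WT-marked genes, without matching for WT rank. Their best WT regions had a median rank percent of 15.5, against 28.5 for all WT-marked genes. Recurrence among all WT-marked genes was 95.7% in the strongest 10% of the WT list and 15.1% in the weakest 10%. With 1 library in each arm a missing region has no p-value.

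Among these 8, AARS and SARS2 had strong WT regions. SARS2, for mitochondrial serine, stood at rank 6076 for BCL11A (score 31.0), 3964 in K562 and 2575 in WT (signal 72.9), with all positions between 480 and 501 bp inside the gene, in an intron. Its start lies 58 bp from that of MRPS12, a mitochondrial ribosomal protein gene on the other strand, which shares all 3 regions. AARS, for cytosolic alanine, had ranks of 7359 in K562 and 3442 in WT (signal 64.5), at 76 and 74 bp inside the gene, in regions shared with DDX19B. Of the 1820 WT-marked genes whose best region fell in the strongest 10% of the WT list, 95.7% were also marked in 195C>G. On chromosome 19, where SARS2 lies, the share among such genes was 80.4% of 306 genes. The other 6 stood lower in WT, YARS2 at rank 7932 (signal 42.8), LARS at 14471, KARS at 16019, FARSA at 21164, NARS2 at 25251 and FARS2 at 35235.

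Some members were marked by ZBTB7A and not by BCL11A. LARS2, SARS and YARS had regions in all 3 ZBTB7A lists and none for BCL11A. The share of all genes with this pattern was not counted, so it is not read as a trait of the set. SARS, for cytosolic serine, stood at rank 2125 in K562, 5341 in 195C>G (signal 53.8) and 2914 in WT (signal 69.3), between 107 and 154 bp upstream. YARS, for cytosolic tyrosine, stood at 902 in K562, 7153 in 195C>G (signal 46.6) and 2593 in WT (signal 72.8), and S100PBP, which starts 514 bp inside YARS on the other strand, shares these regions. LARS2, for mitochondrial leucine, stood at 8163, 11649 (signal 35.3) and 10106 (signal 37.3). QARS, the glutamine enzyme of the multi-synthetase complex, had regions in the ΔGγ lists alone, at rank 2618 in 195C>G (signal 74.2) and 3947 in WT (signal 60.7). The best QARS regions lay in an intron, 647 and 639 bp inside the gene.

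BCL11A regions without any ZBTB7A promoter region were found at CARS2 (rank 10427) and RARS (rank 6332, score 29.9). VARS2 had none in K562, and the other lists hold no region anywhere in its stretch of chromosome 6. The share of all genes marked by BCL11A alone was not counted. RARS encodes the arginine enzyme of the multi-synthetase complex and CARS2 the mitochondrial cysteine enzyme. EPRS, which charges both glutamate and proline tRNAs, stood at rank 3792 for BCL11A (score 46.3), 15097 in 195C>G (signal 29.9) and 9406 in WT (signal 38.9), with none in K562. IARS had regions late in the BCL11A (rank 11515, score 15.8) and K562 (rank 15646) lists, and FARSA in the BCL11A list (rank 9718, score 19.4) beside WT. A difference between lists here is a difference in what passed each peak caller, not a tested difference in binding.

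The positions of BCL11A and ZBTB7A regions were compared at members marked in both. Of the 18 BCL11A-marked members, 13 had a BCL11A promoter region overlapped by a K562 ZBTB7A region, against 46.7% of all BCL11A-marked genes. These 13 were also all the members marked in both lists, and HARS and HARS2 among them share 1 region. Their best regions overlapped in 13 of 13 cases, against 62.7% of all genes marked in both, with a median gap between midpoints of 65 bp for members and 231 bp for all such genes. BCL11A best regions overlapped those of 195C>G at 9 of 9 members (66.8% of all such genes) and those of WT at 10 of 11 (72.4%). K562 best regions overlapped those of 195C>G at 11 of 11 members (85.9%) and those of WT at 12 of 13 (86.5%). An overlap of 1 bp sufficed, and at FARSA the positions of the BCL11A and WT regions lay 487 bp apart. Between 195C>G and WT the best regions overlapped for 12 of 13 members (92.1% of all such genes), with a median gap between summits of 47 bp for members and 52 bp for all such genes.

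The regions lay close to the starts. The median position of the members' best regions was 71.5 bp inside the gene for BCL11A, 7 bp upstream in K562, 136 bp inside in 195C>G and 112 bp inside in WT. For all marked genes the medians were 41 bp inside, 15 bp upstream, 14 bp inside and 22 bp inside. All 18 BCL11A and all 17 K562 regions lay within 500 bp of a start, as did 12 of 13 in 195C>G and 19 of 21 in WT. Most marked genes of the whole annotation also had their best region this close. They numbered 3864 of 4723 for BCL11A, 5217 of 6424 in K562, 4293 of 5638 in 195C>G and 6872 of 8684 in WT. The nearest region beyond 1 kb lay at 1409 bp for BCL11A (CARS), 3883 bp in K562 (FARSA), 1376 bp in 195C>G (KARS) and 1664 bp in WT (IARS), whereas among members marked in each list the gene whose nearest region lay farthest from a start had it at 492, 480, 428 and 501 bp. The best-ranked region can lie farther out than the nearest, as at QARS. Outside promoters, regions within the members' gene bodies numbered 2 for BCL11A, 7 in K562, 4 in 195C>G and 14 in WT. Of the WT regions, 8 lay in FARS2, and the bodies of other genes were not counted.

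**Figure D3:**
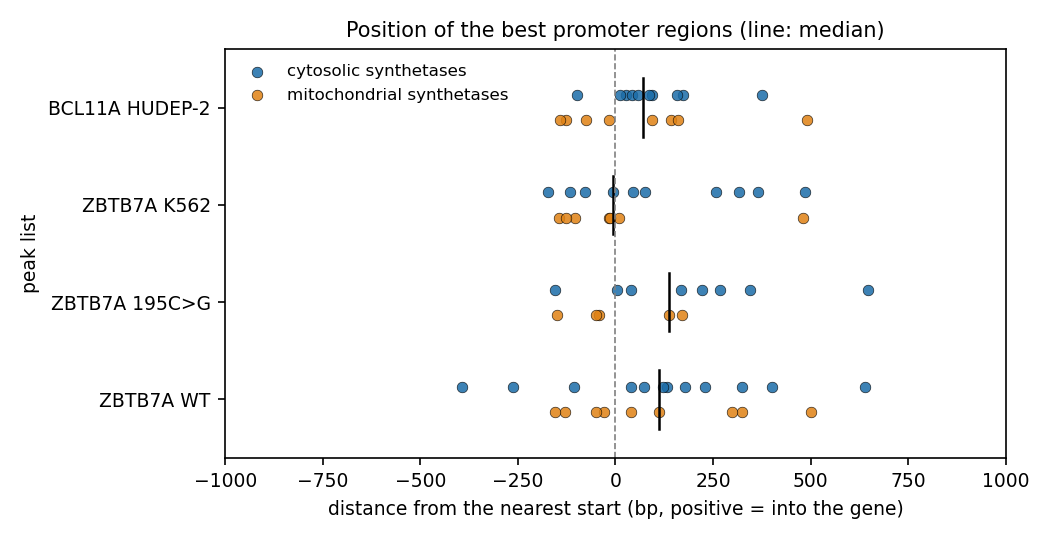
Position of each synthetase gene's best promoter region (x axis, bp from the nearest start, positive into the gene) in each peak list (rows), with the median as a black line. The points lie between 393 bp upstream and 647 bp downstream, and the medians stand at 71.5, -7, 136 and 112 bp from top to bottom.

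Several synthetase genes share their promoter with a gene on the other strand, and 11 members have another NM start within 1 kb. HARS and HARS2, the cytosolic and mitochondrial histidine genes, start 301 bp apart in an arrangement in which they overlap at their 5′ ends. A single region served both, at rank 4526 for BCL11A (score 39.9) over chr5:140691166-140691535 and at rank 13880 in K562, and neither ΔGγ list had one within 12 kb. These genes are thus 1 observation and not 2. The other partners were DDX19B (AARS), UBFD1 (EARS2), LYRM4 (FARS2), TERF2IP (KARS), ARHGAP9 (MARS), ORC3 (RARS2), MRPS12 (SARS2), WDR25 (WARS) and S100PBP (YARS). Members with such a neighbour were marked in 5 of 11 cases by BCL11A, 7 in K562, 3 in 195C>G and 7 in WT. Members without one were marked in 13, 10, 10 and 14 of 24 cases in the same lists. Over all genes, those with a neighbouring start were marked at 34.8% for BCL11A, 45.9% in K562, 40.9% in 195C>G and 62.3% in WT, and those without at 22.6%, 31.0%, 27.1% and 41.9%.

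The sequence of the promoters was searched on both strands for short motifs in 1 RefSeq window of 300 bases per gene. The letters TGATGNAA, the core of the element through which ATF4 answers amino acid shortage, were found in 6 of 29 members, or 20.7%, against 2.68% of all 15318 promoters and 1.00% of CpG-rich ones. Counting every RefSeq window of a gene, 8 of 29 members held it (27.6%), against 3.58% of all genes, and 7 of the 8 were cytosolic. The matches are shown with 10 bases on either side, 5′ to 3′ along the gene's strand, with the match in capitals, because the same letters recur near the starts of these genes (GRCh38.p14).
AARS (chr16:70289676-70289703, minus strand): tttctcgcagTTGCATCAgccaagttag
CARS (chr11:3057408-3057435, minus strand): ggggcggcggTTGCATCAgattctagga
GARS (chr7:30594835-30594862, plus strand): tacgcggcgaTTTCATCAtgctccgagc
IARS (chr9:92293693-92293720, minus strand): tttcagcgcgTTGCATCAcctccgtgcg
MARS (chr12:57488054-57488081, plus strand): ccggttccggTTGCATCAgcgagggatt
NARS (chr18:57621805-57621832, minus strand): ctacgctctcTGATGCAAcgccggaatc
TARS (chr5:33440957-33440984, plus strand): cgcctttcgaTTGCATCAgctggtccag
YARS2 (chr12:32756077-32756104, minus strand): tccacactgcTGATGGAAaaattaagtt
AARS, CARS, IARS, MARS and TARS carry TTGCATCA along the gene's strand, and NARS carries its reverse complement. Of these 8 genes, CARS, MARS and NARS had no region in any list, YARS2 had 1 in WT alone, and GARS and TARS had one in all 4 lists.

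CCGGAA, the core bound by ETS factors, was found in 19 of 29 members (65.5%), against 22.8% of all promoters and 31.6% of CpG-rich ones. It was present in 7 of the 10 members with regions in 3 or 4 lists and in 5 of the 7 with none. For TARS and WARS, counted among those 7 of 10, the match lies in another RefSeq window than the one printed above, which holds none. TGACCA, the motif through which BCL11A binds the γ-globin promoters, was found in 3 of 29 members (AARS, FARSA and QARS), or 10.3%, against 9.37% of all promoters. AARS and QARS had no BCL11A region, whereas FARSA had one. Over every RefSeq window WARS was added, whose window above holds a match on each strand (4 of 29 members, against 1842 of 15318 genes). CTTCCCC, part of the γ-globin element bound by ZBTB7A, was found in 4 members (13.8%, against 13.9%), or, over every window, in 6 (against 2764 of 15318 genes). GACCC, searched as a candidate ZBTB7A core, was found in 17 (58.6%, against 51.9%). CCAAT was found in 14 (48.3%, against 36.2%). CCGGAA and TGATGNAA thus had a higher share in the set than among all promoters, whereas the shares of the letters searched for BCL11A and ZBTB7A lay nearer to it. A match is a description of the sequence and not a binding site.

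The partners of the synthetases were described from a list of 18 genes. Those not named below were AARSD1, DTD1, EEF1D, EEF1G, MTFMT, PSTK, SEPSECS, TARSL2 and TSFM. By its symbol TARSL2 is a threonine synthetase gene and not a partner. It had a region in 195C>G (rank 8547) and in WT (rank 11599), so it is counted in both lists below. The shares were not recomputed without it. BCL11A marked 5 of them (27.8%, against 24.4% of all genes). ZBTB7A marked 8 in K562 (44.4%, against 33.2%), 10 in 195C>G (55.6%, against 29.1%) and 14 in WT (77.8%, against 44.9%). EEF1B2, a subunit of the elongation factor complex that recharges the carrier of charged tRNAs, was the 1 partner marked by every list. Its ranks were 6203 for BCL11A, 1731 in K562, 1203 in 195C>G and 1445 in WT. EEF1A1, which carries charged tRNAs to the ribosome, had regions in the ZBTB7A lists, at 7887 in K562, 1439 in 195C>G and 2369 in WT. TUFM, its mitochondrial counterpart, stood at 1686, 6141 and 5715 in those lists. Of the 3 scaffold genes of the multi-synthetase complex, AIMP2 stood at rank 957 for BCL11A, 9822 in K562 and 10663 in WT, AIMP1 at 5429 in 195C>G and 8327 in WT, and EEF1E1 had none. Of the mitochondrial amidotransferase genes that complete the route begun by EARS2, QRSL1 was marked in the 3 ZBTB7A lists, GATC in the BCL11A and WT lists and GATB in WT alone.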

How the data were processed

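ChIP-seq libraries of BCL11A and ZBTB7A were deposited as 4 peak lists. The tools listed in the submitters' processing notes are Trimmomatic 0.3.2, Bowtie2 2.2.9, Picard, Bowtie and bedtools, with hg38 as the build and no roles stated. By name and sample labels, the BCL11A and K562 lists are IDR (irreproducible discovery rate) lists over replicates and the 195C>G and WT lists are SPP calls of 1 library. The deposited BCL11A list gives a score, and the deposited 195C>G and WT lists give a signal, a −log10 false discovery rate and a summit. Control titles say input, whereas their antibody label is IgG.

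No read depth can be had from the lists, and the intervals given cover counting error over genes only. Standard chromosomes were kept and identical regions counted once (Python 3.11.15, pandas 2.3.3, scipy 1.17.1). The 195C>G and WT lists use a modified chromosome 11, so for the hg38 lists 4928 bp were added to starts after HBG1. NARS2 is the one member affected, and its shifted start equals that in RefSeq GRCh38.p14. All 35 members matched RefSeq, and 29 had a promoter sequence there. AARS2, DARS, LARS, VARS, VARS2 and YARS were without one. Placement and overlap were tested on simulated regions. Coordinates are 1-based. Full values were given for members in all 4 lists, the 5 best-ranked of each list and those differing between 195C>G and WT. Members, lists and rules were chosen with earlier results of these data known. Alternatives were windows of 500 bp and 5 kb, any overlap, midpoints, 1 start per gene and the stronger 50% of each list. The chromosome 6 stretch, the CpG-rich background, the all-gene overlap of best regions and counts over every promoter window were added after seeing the data.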

Additional observations from a re-analysis of the deposited data

How the results depend on the processing

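Of 178 values recomputed under alternatives, 170 stayed within 1.5 times the count given, or, for differences in share, within their interval. Those intervals are wide, so the difference in 195C>G could go from 6.67 to 21.7 points and still count as within. The 8 that moved all came from keeping the stronger 50% of each list. Members with a promoter region then numbered 6 in 195C>G, 4 of them cytosolic and 2 mitochondrial, which is 17.1% against 17.8% of all genes. BCL11A kept 5 mitochondrial members, 2 members were marked in all 4 lists, and 6 WT-marked members were also marked in 195C>G. Of the 18 partners, BCL11A marked 2, and 5 were marked in K562. The cause was not tested, beyond the shorter lists. In the stronger 50% of each list, 13.8% of all genes had a promoter region for BCL11A and 20.8% in K562. The shares of all genes marked in all 4 lists, or in both WT and 195C>G, were not recomputed at this setting. The cytosolic minus mitochondrial share changed sign for BCL11A and WT: for BCL11A it ran from -3.33 to 1.67 percentage points over the settings, and for WT from -4.44 (without GARS and KARS) to 6.67 (500 bp window). For K562 it ran from 0 to 9.77 (without members on chromosome 19), and for 195C>G from 5.56 to 21.7 (5 kb window). Leaving out members on chromosome 19, or those copied on alternative contigs, was chosen after seeing the data and moved no count by over 1.5 times. No paired analysis was possible because the lists pool replicates or hold 1 library, and replicates could not be left out for the same reason. Depth is unknown, so absence of binding cannot be read from a missing region.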
